A study of Rattus norvegicus with 9 samples.

Results

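Hypoxia-inducible factors (HIFs) and the genes around them were followed in rat kidney through 10 genes chosen by symbol, from a table of 19367 genes. They were the alpha subunits Hif1a and Epas1, the prolyl hydroxylases Egln1, Egln2 and Egln3, and the targets Vegfa, Adm, Ddit4, Bnip3 and Epo. All 10 were in the table, and 9 of them were among the 13127 genes expressed well enough to be tested. Epo was below that filter, which asked for 1 FPKM or more in no fewer than 3 of the 9 libraries. FPKM is the number of sequenced fragments per kilobase of transcript, scaled to the mapped reads of each library.

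Kidney RNA had been sequenced in 3 groups of 3 libraries. The first group were spontaneously hypertensive rats (SHR, an inbred strain with high blood pressure) that received 10 mg/kg dapagliflozin by mouth each day for 8 weeks. Dapagliflozin blocks SGLT2, the transporter that takes up filtered glucose in the early proximal tubule. The second group were SHR without the drug, and the third were Wistar-Kyoto rats (WKY, the related strain with normal blood pressure), also without it. All rats were 3 months old at entry, and both groups without the drug received distilled water over the same 8 weeks according to the protocol, although another field of the labels names saline. Groups follow the titles of the samples, because the labelled strain is Wistar-Kyoto throughout. Per the labels each group had 3 rats, but no library is tied to an animal, so p-values measure the spread between libraries only.

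HIFs are pairs of an oxygen-regulated alpha subunit (HIF-1α from Hif1a, HIF-2α from Epas1) and a constant partner encoded by Arnt. In the presence of oxygen the EGLN enzymes hydroxylate prolines of the alpha subunit, the von Hippel-Lindau protein then binds it, and it is degraded. When oxygen is short, the alpha subunit persists and switches on genes of blood vessel growth, red cell formation, glycolysis and mitochondrial turnover. In kidney, HIF-1α is known mainly from tubule cells and HIF-2α from interstitial and endothelial cells, and erythropoietin comes from interstitial cells. Because the oxygen signal acts largely on protein stability, the transcript level of an alpha subunit is not a measure of HIF activity.

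Read totals are unknown. By an estimate from low values, the FPKM worth of 1 read differed by at most 1.09 times between libraries, and no pair of libraries was identical. The estimate kept only ratios close to equality, so a large difference in depth would not have been seen. Markers of kidney segments were abundant in every library, with Umod of the thick ascending limb at 1332 to 4616 FPKM, Lrp2 of the proximal tubule at 50.2 to 196 and Aqp2 of the collecting duct at 191 to 1168. The marker lists did not have the same level in all groups. The mean log2(FPKM + 1) of 12 proximal tubule markers was 6.91 to 7.75 in treated SHR, 7.98 to 8.21 in SHR and 8.11 to 8.38 in WKY, so that every treated library lay below all others. That of 9 collecting duct markers was 6.81 to 7.61 in treated SHR, 6.22 to 6.60 in SHR and 5.30 to 6.01 in WKY, with no overlap between any pair of groups. The summed FPKM of the proximal list was 3803 to 7433 in treated SHR, 8752 to 9292 in SHR and 7916 to 10069 in WKY, and that of the collecting duct list was 2069 to 3833 in treated SHR, 1379 to 1722 in SHR and 684 to 1284 in WKY. No marker in either list was at 0 in all libraries. In whole tissue, fewer cells of a type and less RNA per cell cannot be told apart. The part of these marker differences in the results that follow was not tested. A fit with the proximal mean as a covariate is given, but it cannot separate the treatment from the marker levels, because every treated library had the lower mean.

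**Figure D1:**
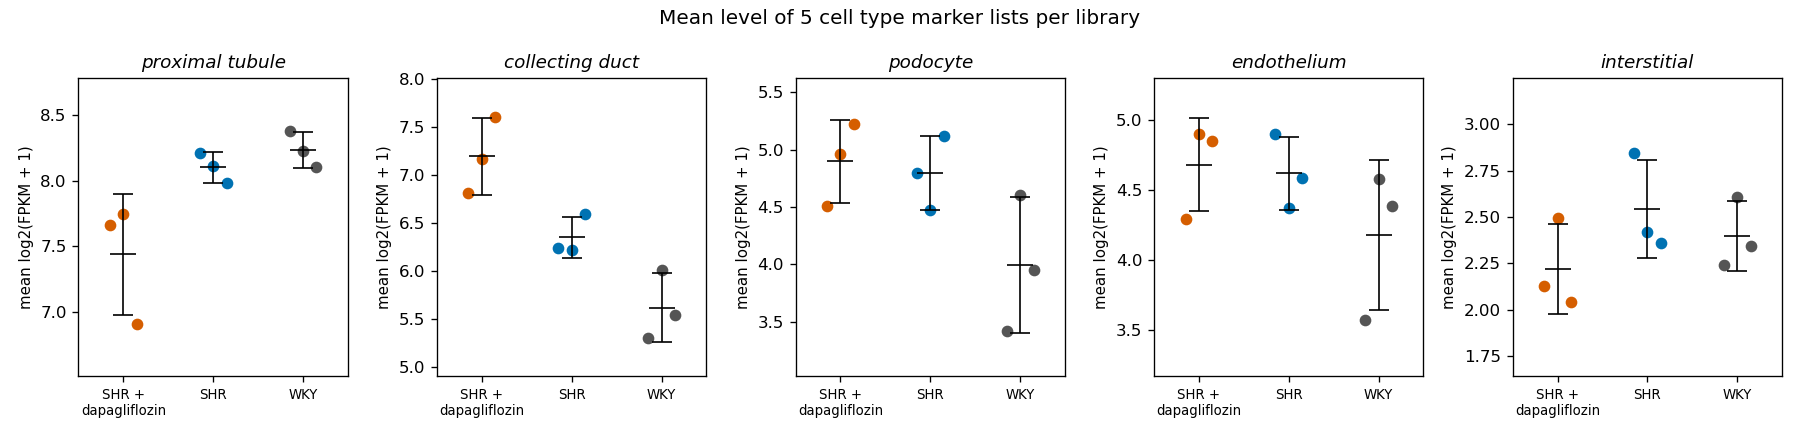
Mean log2(FPKM + 1) of 5 lists of cell type markers in each library (points), with the mean and SD of each group (bars, n = 3 libraries); vertical axes do not start at 0 and differ between panels. Proximal tubule markers are lowest in the 3 treated SHR libraries and collecting duct markers are highest there, while podocyte, endothelial and interstitial markers overlap between treated SHR and SHR.

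Ddit4 was the 1 gene of the 10 that passed the test between SHR and WKY, and no gene of the 10 passed the test between treated SHR and SHR. Transcript levels of Ddit4, Adm, Vegfa, Hif1a and Egln2 were higher in all 3 SHR libraries than in all 3 WKY libraries. Treated SHR libraries were all above the WKY libraries for these 5 genes and for Epas1. Egln1, Egln3 and Bnip3 overlapped between the groups in every comparison, and Epo was barely detected.

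Counted with limma and Benjamini-Hochberg adjustment over all 13127 genes, 1 of 9 genes (Ddit4) was called higher in SHR than in WKY at an adjusted p under 0.05, where 2.96% of all genes were called in either direction and 1.84% were called higher and 1.12% lower. The 9 log2 changes had a median of 0.19, against 0.07 for all genes. Of all genes, 64.1% had a positive change and 2566 had an unadjusted p under 0.05 in SHR against WKY. For 5 of the 9 the SHR values all lay above the WKY values, a separation that 20.3% of all genes showed in that direction. Limma called 0 of 9 between treated SHR and SHR, and 0% of all genes. At an unadjusted p under 0.05 limma gave 0 of the 9 genes and 1997 of all genes, and the smallest adjusted p of the 9 was 0.356. The median change of the 9 was 0.12, against 0.04 for all genes, and none of the 9 separated the groups, where 19% of all genes did. A positive change was found there for 57.4% of all genes. For treated SHR against WKY 4 of 9 genes (Adm, Ddit4, Hif1a and Egln2) were called, all higher, where 22.9% of all genes were called and 16.8% were called higher and 6.09% lower. The median change was 0.32, against 0.11 for all genes, and 6 of the 9 separated the groups upwards, as did 28.2% of all genes. Here 64.6% of all genes had a positive change and 5276 had an unadjusted p under 0.05. Counts of positive changes and of unadjusted p in the lists that follow stand against these figures. The count of 4 genes dropped to 2 after median-of-ratios scaling or quantile normalization, and of all genes called between treated SHR and WKY 73.5% were higher as deposited, 53.6% after the first scaling and 59.9% after the second. Of those called between SHR and WKY, 62.1% were higher as deposited, 52.5% after the first and 49.6% after the second. The count of 4 became 0 with the proximal covariate, 0 without WKY library 1 or 3 or treated library 2 or 3, and 6 without treated library 1.

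**Figure D2:**
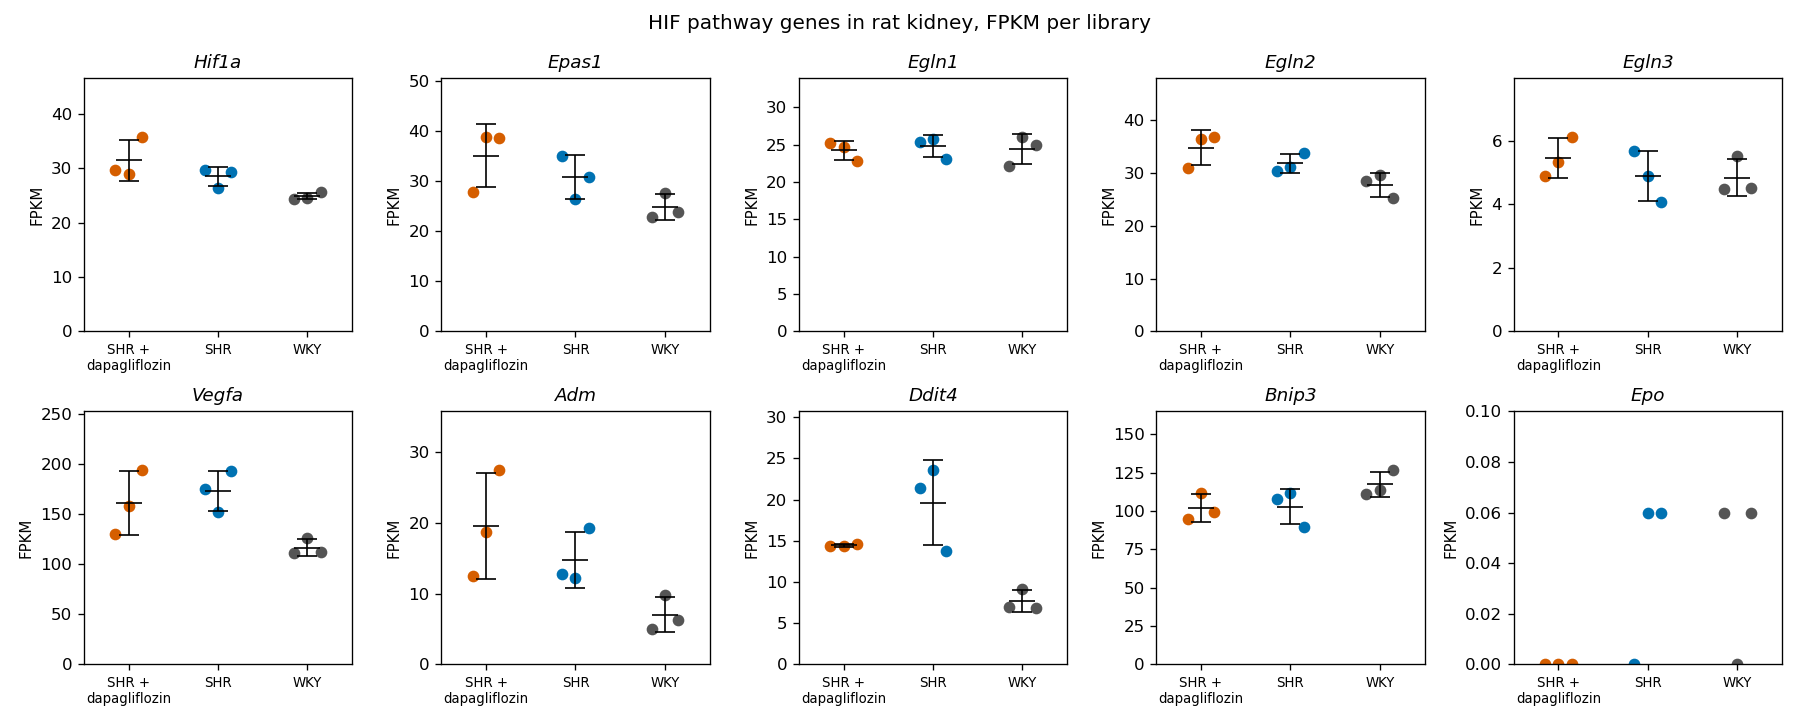
FPKM of the 10 genes in each library (points), with the mean and SD of each group (bars, n = 3 libraries; none for Epo); each panel has its own vertical axis from 0. Ddit4, Adm, Vegfa, Hif1a and Egln2 lie higher in the treated SHR and SHR libraries than in the WKY libraries, and Epo is at 0 or 0.06 FPKM everywhere.

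Levels spanned a wide range in FPKM, which is corrected for transcript length. Vegfa and Bnip3 were the most abundant, with their medians at percentiles 94.9 and 93.3 of the genes tested. Vegfa exceeded Bnip3 in every treated SHR and SHR library, whereas in WKY their ranges overlapped, at 111 to 126 FPKM for Vegfa and 111 to 127 FPKM for Bnip3. Egln2, Epas1, Hif1a and Egln1 followed at 22.2 to 38.9 FPKM over the 9 libraries. Neighbours among Egln2, Epas1 and Hif1a overlapped within every group. Hif1a exceeded Egln1 in every library except WKY library 2 (24.6 against 26.1 FPKM). Ddit4 and Adm came next and overlapped each other in each group. Egln3 was the lowest of the genes tested, at 4.09 to 6.13 FPKM and percentile 28.2.

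Hif1a (gene ID 29560), the alpha subunit of HIF-1, had 29.7, 28.9 and 35.8 FPKM in treated SHR libraries 1 to 3, 29.7, 26.4 and 29.4 FPKM in SHR and 24.4, 24.6 and 25.6 FPKM in WKY. All treated SHR and SHR libraries lay above all WKY libraries, and treated SHR and SHR overlapped. On the log2(FPKM + 1) scale, on which all changes are given and which understates changes of weakly expressed genes, treated SHR exceeded WKY by 0.32 ± 0.09 (SE; limma, adjusted p = 0.0378). SHR exceeded WKY by 0.19 ± 0.09 (adjusted p = 0.296), and the difference between treated SHR and SHR was 0.13 ± 0.09 (adjusted p = 0.489). All genes had a median change of 0.11 between treated SHR and WKY, and one of -0.01 after median-of-ratios scaling, and relative to the deposited median Hif1a was 0.21 higher. After that scaling its change was 0.19 and no longer called (adjusted p = 0.109), and of the 9 fits without 1 library only those without SHR library 2 (adjusted p = 0.0491) and treated library 1 (adjusted p = 0.0275) kept the call.

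Epas1 (gene ID 29452) encodes the alpha subunit of HIF-2. It stood at 27.9, 38.9 and 38.6 FPKM in treated SHR, 35.1, 26.4 and 30.9 FPKM in SHR and 22.9, 27.7 and 23.8 FPKM in WKY. Each treated library was above the WKY libraries, library 1 by only a small margin, while SHR overlapped both other groups. The change between treated SHR and WKY was 0.47 ± 0.15 (adjusted p = 0.0524), and without treated library 1 it was 0.63 and called (adjusted p = 0.00836), as it was without WKY library 2 (0.55, adjusted p = 0.0461). Between SHR and WKY it was 0.30 ± 0.15 (adjusted p = 0.314), and between treated SHR and SHR 0.18 ± 0.15 (adjusted p = 0.585). The mean log2(FPKM + 1) of 10 endothelial markers, a cell type in which HIF-2α is best known, was 4.30 to 4.90 in treated SHR, 4.37 to 4.90 in SHR and 3.57 to 4.58 in WKY. That of 9 interstitial markers was 2.04 to 2.50 in treated SHR, 2.36 to 2.85 in SHR and 2.24 to 2.61 in WKY. Groups overlapped in both lists. The 10 endothelial markers had a median log2 change of 0.41 between treated SHR and WKY, with 9 of them positive. The 9 interstitial markers had a median of -0.54 there, with 4 positive and 5 negative. Over all genes the median was 0.11 and 64.6% were positive. The part of either marker list in the change of Epas1 was not tested.

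Of the partner subunits, Arnt2 rose in treated SHR relative to WKY, with 20.4, 26.9 and 31.4 FPKM in treated SHR, 20.9, 20.5 and 18.3 FPKM in SHR and 12.3, 18.3 and 14.9 FPKM in WKY. Its log2 change was 0.75 ± 0.17 (limma, adjusted p = 0.0203), the treated libraries all lay above the WKY libraries, and the comparison of SHR with WKY was not called (0.39 ± 0.17, adjusted p = 0.261). Arnt itself passed no test, and Hif3a, whose product can restrain other HIFs, was below the filter.

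Egln1 (gene ID 308913, PHD2, the enzyme that sets HIF-1α levels in most cells) had 25.3, 24.7 and 22.8 FPKM in treated SHR, 25.4, 25.8 and 23.1 FPKM in SHR and 22.2, 26.1 and 24.9 FPKM in WKY. The 3 groups overlapped throughout. Its changes were 0.02 in SHR against WKY, -0.03 in treated SHR against SHR and -0.01 in treated SHR against WKY, each with an SE of 0.08, and intervals of 2 SE reached from -0.14 to 0.19, from -0.20 to 0.14 and from -0.18 to 0.16.

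Egln2 (gene ID 308457, PHD1) had 30.96, 36.5 and 36.8 FPKM in treated SHR, 30.5, 31.1 and 33.8 FPKM in SHR and 28.4, 29.5 and 25.3 FPKM in WKY. Both SHR groups lay entirely above WKY and overlapped each other. The change between treated SHR and WKY was 0.31 ± 0.09 (adjusted p = 0.0424), or 0.21 above the median of all genes. It was no longer called after median-of-ratios scaling (0.18, adjusted p = 0.124) or quantile normalization (0.23, adjusted p = 0.0837), and of the 9 fits without 1 library only those without WKY library 2 (adjusted p = 0.0413) and treated library 1 (adjusted p = 0.0118) kept the call. SHR exceeded WKY by 0.19 ± 0.09 (adjusted p = 0.296). The ratio of Egln2 to Egln1 within a library, formed after the values were seen, was 1.23 to 1.62 in treated SHR, 1.20 to 1.46 in SHR and 1.01 to 1.28 in WKY, and overlapped between all groups.

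Egln3 (gene ID 54702, PHD3), a hydroxylase whose transcript is itself induced by HIF, had 4.91, 5.33 and 6.13 FPKM in treated SHR, 5.68, 4.91 and 4.09 FPKM in SHR and 4.48, 5.51 and 4.52 FPKM in WKY. The groups overlapped in every comparison, and its largest change, 0.15 ± 0.13 between treated SHR and WKY, had an adjusted p of 0.426. Of 12 other tested genes that hydroxylate, ubiquitinate or restrain HIF, 0 were called by limma between SHR and WKY or between treated SHR and SHR (2 in each at an unadjusted p under 0.05), and 3 rose in treated SHR against WKY, where 22.9% of all genes were called. The counts of the other lists in that comparison stand against the same share. With the 3 EGLN genes included the list held 4 calls, 5 without treated library 1 and 1 or 2 without any other library except WKY library 2. Hif1an, the asparaginyl hydroxylase that blocks the HIF activation domain, stood at 9.17, 10.5 and 9.58 FPKM in treated SHR, 6.05, 6.04 and 8.24 FPKM in SHR and 6.70, 5.94 and 5.84 FPKM in WKY (log2 change to WKY 0.59 ± 0.12, adjusted p = 0.0157). Cited4, which binds the same coactivators as HIF, changed by 1.23 ± 0.20 (adjusted p = 0.00767), and Rbx1, a subunit of the ubiquitin ligase, by 0.29 ± 0.08 (adjusted p = 0.0376). The list's median change between treated SHR and WKY, its 3 EGLN genes included, was 0.10, against 0.11 for all genes.

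**Figure D3:**
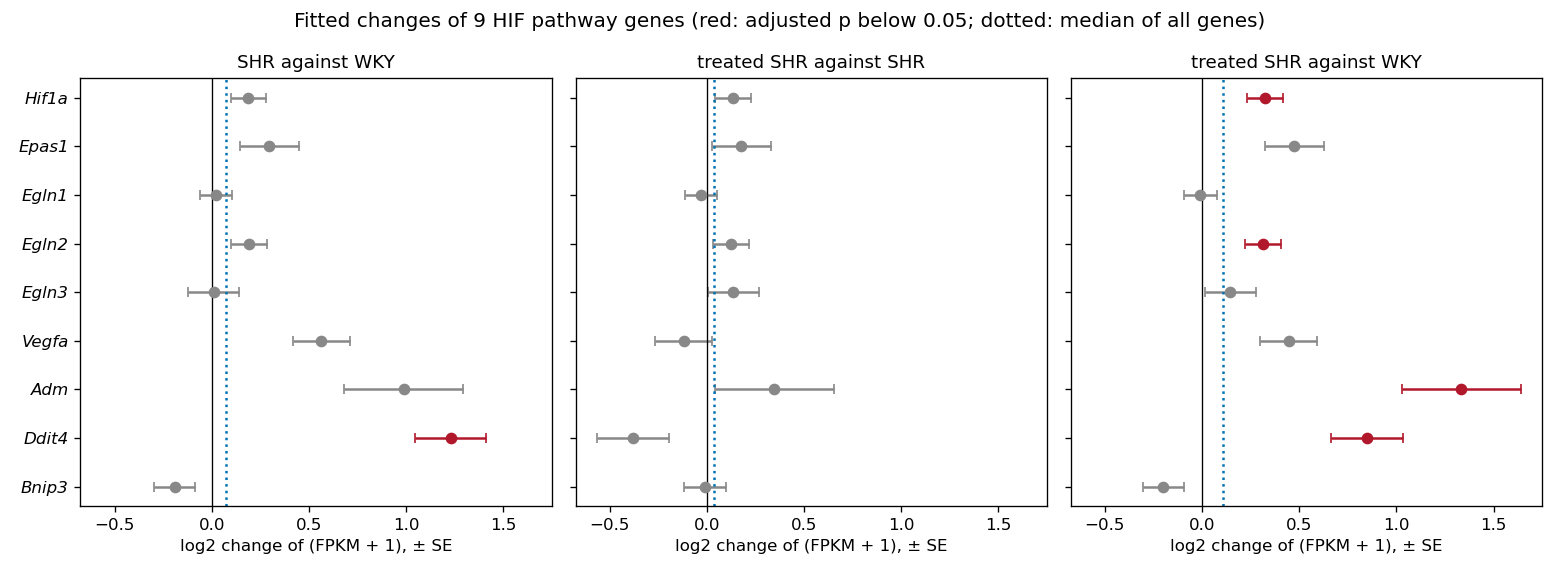
Log2 change of (FPKM + 1) with its SE for the 9 genes tested, in SHR against WKY, treated SHR against SHR and treated SHR against WKY; red points had an adjusted p below 0.05 (limma), and the dotted line is the median of all 13127 genes. Ddit4 stands out between SHR and WKY at 1.23, no point is red between treated SHR and SHR, and Adm, Ddit4, Hif1a and Egln2 are red between treated SHR and WKY.

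Ddit4 (gene ID 140942, also called REDD1) encodes an inhibitor of the growth kinase complex mTORC1 and is induced by hypoxia, glucocorticoids and the ATF4 stress pathway. It had 14.3, 14.4 and 14.6 FPKM in treated SHR, 21.4, 23.6 and 13.8 FPKM in SHR and 6.97, 9.20 and 6.80 FPKM in WKY. Every SHR library, treated or not, lay above every WKY library. SHR libraries 1 and 2 were above the treated libraries and SHR library 3 was below them. The mean was 14.5 ± 0.159 FPKM in treated SHR, 19.6 ± 5.17 in SHR and 7.66 ± 1.34 in WKY (SD, n = 3 libraries each), a ratio of 2.56 between SHR and WKY.

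The log2 change of Ddit4 between SHR and WKY was 1.23 ± 0.18 (SE; limma, adjusted p = 0.0091). It ranged from 1.08 to 1.45 when 1 library was left out, and the call was lost without WKY library 3 (adjusted p = 0.0531) and without SHR library 1 (adjusted p = 0.051). In treated SHR against WKY the change was 0.85 ± 0.18 (adjusted p = 0.0179), a call lost without WKY library 1 or 3 or treated library 2 or 3 (adjusted p = 0.0529 to 0.07) and with the proximal covariate (0.95, adjusted p = 0.553). The difference between treated SHR and SHR was -0.38 ± 0.18 (adjusted p = 0.356), and no alternative setting made it a call.

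The promoters of 3 genes are shown, picked for display after their matches and changes were seen. Ddit4 rose in SHR against WKY, Adm separated the same groups, and Bnip3 did not rise. HIF binds DNA at a short core, and the core was searched as ACGTG and as GCGTG, on both strands, in the 250 bases before each transcription start. The sequences are RefSeq's for the rat build GRCr8, which differs from the build the submitters name, and run 5′ to 3′ on the strand of the gene. Capitals mark every match, so that a match on the opposite strand reads CACGT or CACGC, and matches can overlap, as in CACGTG, which holds ACGTG on both strands. The windows are chr20:28437038-28437287 (minus strand) for Ddit4, chr1:174179950-174180199 (plus strand) for Adm and chr1:203154963-203155212 (minus strand) for Bnip3.
Ddit4: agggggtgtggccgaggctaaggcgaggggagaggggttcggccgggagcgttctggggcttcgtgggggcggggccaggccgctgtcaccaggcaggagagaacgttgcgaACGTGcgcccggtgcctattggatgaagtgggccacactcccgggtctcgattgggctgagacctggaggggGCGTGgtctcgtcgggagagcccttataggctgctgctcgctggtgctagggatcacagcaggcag
Adm: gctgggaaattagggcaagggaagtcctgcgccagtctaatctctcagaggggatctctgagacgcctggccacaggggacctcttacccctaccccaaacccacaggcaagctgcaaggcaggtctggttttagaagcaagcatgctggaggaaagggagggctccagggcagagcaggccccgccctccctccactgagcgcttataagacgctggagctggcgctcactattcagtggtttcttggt
Bnip3: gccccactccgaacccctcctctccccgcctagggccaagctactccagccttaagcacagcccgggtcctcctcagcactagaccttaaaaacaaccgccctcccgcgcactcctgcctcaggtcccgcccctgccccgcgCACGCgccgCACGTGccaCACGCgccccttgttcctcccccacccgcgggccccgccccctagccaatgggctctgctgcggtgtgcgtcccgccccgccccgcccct

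The Ddit4 window held ACGTG at positions -138 to -134 and GCGTG at -66 to -62 from the start. The Bnip3 window held ACGTG on both strands, together at -99 to -94, and GCGTG on the opposite strand at -108 to -104 and -90 to -86. The Adm window held neither. Windows were found for all 10 genes, with 2 alternative starts for Vegfa. Hif1a held ACGTG 3 times, Egln1 and Epo held GCGTG once each, and no match lay in the windows of Epas1, Egln2, Egln3 or Vegfa. Thus 3 of 10 genes held ACGTG, where 16.6% of 33469 promoters in the reference and 21.4% of the promoters of tested genes did, and 5 of 10 held either core, against 36.7% and 53.6%. Among all tested genes, 2.70% of the 2374 with ACGTG in the window and 2.88% of the 7941 without it were called between SHR and WKY. These counts describe letters in a short window, and sites outside it were not searched. The part of HIF binding in any change was not tested.

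Other genes of the pathways that act on or below Ddit4 were examined as lists. Of 13 other tested genes of the TSC and mTORC1 arm, limma called 0 between SHR and WKY (2 at an unadjusted p under 0.05) and 3 higher between treated SHR and WKY, where the inhibitor Deptor changed by 0.72 ± 0.13 (adjusted p = 0.0107) and the subunits Rptor and Mlst8 by 0.35 each (adjusted p = 0.0222 and 0.0265). Of 9 tested ATF4 targets, limma called 0 between SHR and WKY (4 at an unadjusted p under 0.05), and Trib3 (0.64 ± 0.17, adjusted p = 0.03) and Ppp1r15a (0.44 ± 0.13, adjusted p = 0.04) were called higher between treated SHR and WKY. The ATF4 list had a median change of 0.10 between SHR and WKY.

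Of 10 tested genes known to be induced by glucocorticoids, 9 had a positive change between SHR and WKY and 1, Fkbp5, was called (6 at an unadjusted p under 0.05). Over all 13127 genes, 64.1% were positive there and 2566 were under that p. The count of called genes in the list was 4 in a fit of the SHR and WKY libraries alone and 5 without treated library 1. Limma called 2 in treated SHR against WKY, Fkbp5 and Cebpd, a transcription factor gene (1.32 ± 0.38, adjusted p = 0.0395), and 7 without treated library 1, but 1 without any other single library except WKY library 2. The list's median between SHR and WKY was 0.88, against 0.07 for all genes. Fkbp5, a cochaperone of the glucocorticoid receptor, had 14.8, 15.5 and 16.7 FPKM in treated SHR, 15.7, 17.9 and 15.9 FPKM in SHR and 6.39, 9.93 and 7.09 FPKM in WKY. Its values in both SHR groups lay above all WKY values, with log2 changes of 1.01 ± 0.14 (adjusted p = 0.006) in SHR against WKY and 0.94 ± 0.14 (adjusted p = 0.00576) in treated SHR against WKY. The list mean of log2(FPKM + 1) was 3.94, 4.89 and 4.81 in treated SHR. It was 4.50 to 4.82 in SHR and 3.61 to 4.06 in WKY. Treated library 1 thus lay within the WKY range for the list mean, while its Ddit4 and Fkbp5 levels lay above theirs. The part of glucocorticoid or ATF4 signals in the change of Ddit4 was not tested. Per1, Sgk1 and Tsc22d3, picked for display after their values were seen, had 4.95, 39.2 and 13.1 FPKM in treated library 1, and 14.6 to 20.3, 120 to 158 and 22.4 to 22.9 FPKM in treated libraries 2 and 3.

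**Figure D4:**
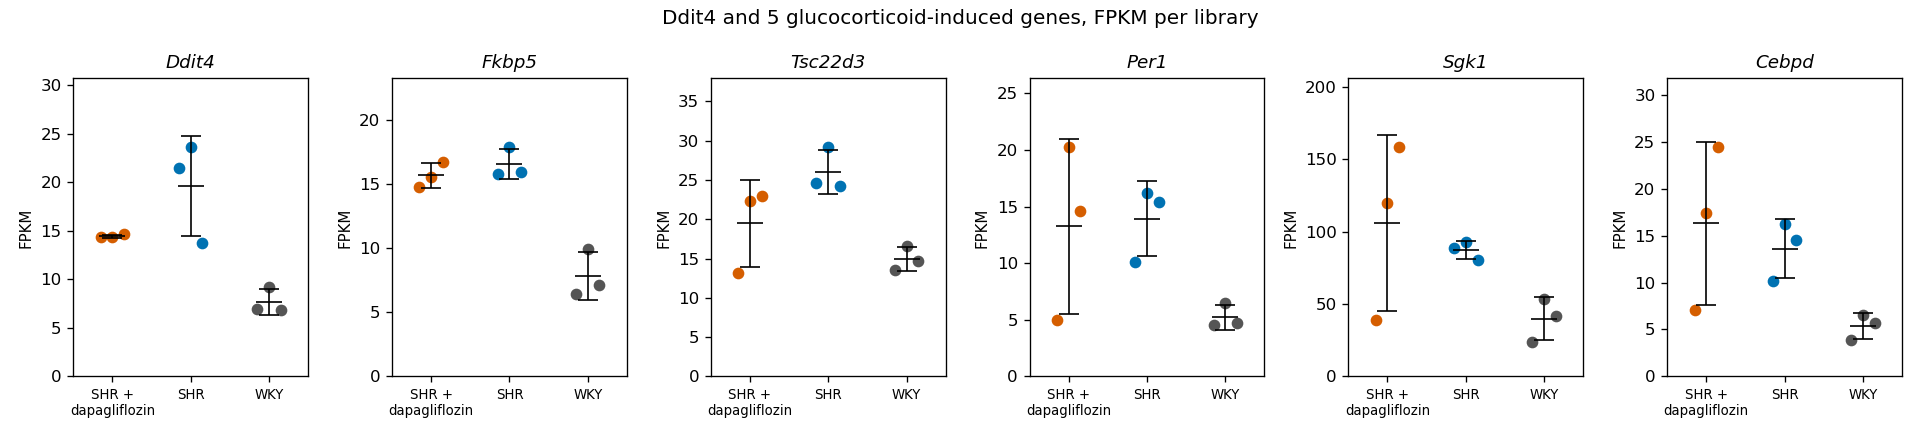
FPKM of Ddit4 and of 5 genes known to be induced by glucocorticoids in each library (points), with the mean and SD of each group (bars, n = 3 libraries); each panel has its own vertical axis from 0. All 3 SHR libraries exceed all 3 WKY libraries in each panel, and treated SHR library 1 is low for Tsc22d3, Per1, Sgk1 and Cebpd but not for Ddit4 or Fkbp5.

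Adm (gene ID 25026) encodes adrenomedullin, a peptide that widens blood vessels and promotes salt excretion. It had 12.5, 18.7 and 27.5 FPKM in treated SHR, 12.8, 12.2 and 19.2 FPKM in SHR and 5.03, 9.81 and 6.24 FPKM in WKY. All treated SHR and SHR libraries lay above the WKY libraries, and treated SHR and SHR overlapped. The means were 19.5 ± 7.53, 14.7 ± 3.89 and 7.03 ± 2.49 FPKM in treated SHR, SHR and WKY (SD, n = 3 each), and the SD was between 26.4% and 38.6% of the mean in each group.

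The log2 change of Adm was 1.33 ± 0.31 between treated SHR and WKY (limma, adjusted p = 0.0201), the largest change among the 9 genes in any comparison. The call was lost without WKY library 1 or 3 or treated library 2 or 3 (adjusted p = 0.0597 to 0.0728). Between SHR and WKY the change of 0.99 ± 0.31 did not pass (adjusted p = 0.14), and between treated SHR and SHR it was 0.35 ± 0.31 (adjusted p = 0.596), with an interval of 2 SE from -0.27 to 0.96. Collecting duct markers were higher in treated SHR than in SHR and higher in SHR than in WKY, as given above. Intercalated cell markers were higher in both SHR groups than in WKY, and the means of podocyte markers overlapped between all groups. All 10 podocyte markers had a positive change between treated SHR and WKY, as did 64.6% of all genes. Their median was 0.88, against 0.11 for all genes. Limma called 3 of them higher, where 16.8% of all genes were called higher. The part of any marker list in the change of Adm was not tested. With the proximal tubule marker mean as a covariate the change between treated SHR and WKY was 0.49 and that between treated SHR and SHR was -0.35, neither called.

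Among 6 other tested genes of the adrenomedullin system, limma called 0 between SHR and WKY (4 at an unadjusted p under 0.05) and 0 between treated SHR and SHR (1 at that level). In treated SHR against WKY 2 rose and 1 fell. Ramp3, which joins the calcitonin receptor-like receptor to form an adrenomedullin receptor, had 19.1, 34.7 and 33.6 FPKM in treated SHR, 22.1, 16.7 and 20.4 FPKM in SHR and 9.61, 17.6 and 14.1 FPKM in WKY (log2 change to WKY 1.02 ± 0.26, adjusted p = 0.0278). Ackr3, a receptor that removes adrenomedullin and chemokines, changed by 1.13 ± 0.26 (adjusted p = 0.0215). The related peptide gene Adm2 went the other way, with 73.7, 66.7 and 37.7 FPKM in treated SHR, 85.7, 106.5 and 76.6 FPKM in SHR and 94.5, 95.8 and 94.1 FPKM in WKY (log2 change to WKY -0.72 ± 0.23, adjusted p = 0.0499).

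Vegfa (gene ID 83785) encodes the vascular endothelial growth factor that tubule cells and podocytes supply to neighbouring capillaries. It had 130, 158 and 194 FPKM in treated SHR, 175, 152 and 193 FPKM in SHR and 111, 126 and 112 FPKM in WKY. Every treated SHR and SHR library exceeded every WKY library. The means were 161 ± 32.1, 173 ± 20.2 and 117 ± 8.37 FPKM in treated SHR, SHR and WKY (SD, n = 3 each).

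The log2 change of Vegfa did not pass the test in the fit of all 9 libraries. It was 0.56 ± 0.15 between SHR and WKY (limma, adjusted p = 0.0889), -0.12 ± 0.15 between treated SHR and SHR (adjusted p = 0.714) and 0.44 ± 0.15 between treated SHR and WKY (adjusted p = 0.0582). Fitted on the SHR and WKY libraries alone, the change between them passed (adjusted p = 0.0346), as it did in the fit without treated library 1 (adjusted p = 0.0346) or 3 (adjusted p = 0.0426). Without treated library 1 the change between treated SHR and WKY was 0.59 and passed (adjusted p = 0.0111). Of the 10 podocyte markers, all had a positive change between SHR and WKY and limma called 0 (8 at an unadjusted p under 0.05). Over all 13127 genes, 64.1% were positive there and 2566 were under that p. The mean log2(FPKM + 1) of the podocyte markers was 4.51 to 5.22 in treated SHR, 4.47 to 5.12 in SHR and 3.42 to 4.60 in WKY.

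Of 12 other tested VEGF family members and receptors, 11 had a positive change between SHR and WKY and limma called 0 (2 at an unadjusted p under 0.05). Over all genes, 64.1% had a positive change there. The coreceptor Nrp1 rose by 0.39 ± 0.12 in treated SHR against WKY (adjusted p = 0.046), and Vegfc, a growth factor of lymphatic vessels, fell by 0.48 on the log2 scale (adjusted p = 0.0457). The list's median change, Vegfa included, was 0.32 between SHR and WKY and 0.39 between treated SHR and WKY, against 0.07 and 0.11 for all genes. The mean of 10 endothelial markers, given above, overlapped between all groups, while all 10 had a positive change between SHR and WKY.

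Bnip3 (gene ID 84480) encodes a mitochondrial outer membrane protein that directs mitochondria to mitophagy and is among the strongest HIF-1 targets in many cells. It had 94.8, 112 and 99.3 FPKM in treated SHR, 108, 111 and 89.6 FPKM in SHR and 111, 114 and 127 FPKM in WKY. The lowest WKY library overlapped the upper SHR and treated SHR libraries. Bnip3 was the 1 gene of the 9 with a negative change between SHR and WKY (-0.19 ± 0.11, adjusted p = 0.35), and its change between treated SHR and WKY was -0.20 ± 0.11 (adjusted p = 0.19). The difference between treated SHR and SHR was -0.01, with an interval of 2 SE from -0.22 to 0.20.

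The ratio of Vegfa to Bnip3 in FPKM, formed after the values were seen, was 1.38, 1.41 and 1.96 in treated SHR, 1.63, 1.37 and 2.15 in SHR and 1.001, 1.11 and 0.886 in WKY. The ratio of Ddit4 to Bnip3 was 0.151, 0.129 and 0.147 in treated SHR, 0.199, 0.212 and 0.154 in SHR and 0.0627, 0.0808 and 0.0536 in WKY. Both ratios are free of any scaling of whole libraries and lay above WKY in every SHR library, treated or not. Vegfa and Ddit4 by themselves already did so, and Bnip3 had a negative change, so the ratios are no separate support. The ratio of Ddit4 to Bnip3 was lower in every treated library than in every SHR library, by a small margin (0.151 against 0.154). No other ratio formed separated these groups, and Ddit4 by itself overlapped between them. Of all genes, 19% separated them. Of 14 other tested mitophagy genes limma called 0 between SHR and WKY (1 at an unadjusted p under 0.05) and 2 higher between treated SHR and WKY. These were Gabarapl1, of the autophagosome membrane (0.92 ± 0.16, adjusted p = 0.0095), and Bcl2l13, a mitophagy receptor (0.43 ± 0.13, adjusted p = 0.0448).

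Epo (gene ID 24335), the hormone of red cell formation, was listed at 0 in 5 of 9 libraries and at 0.06 FPKM in the other 4. It was at 0 in all 3 treated SHR libraries, at 0, 0.06 and 0.06 FPKM in SHR and at 0.06, 0 and 0.06 FPKM in WKY. A value of 0.06 was the only one above 0 listed for this gene, and no difference was detectable at this depth. The exact two-sided permutation test gave p = 1 for SHR against WKY and p = 0.4 for treated SHR against SHR and against WKY, where 0.1 is the smallest p that 3 against 3 libraries allow. Pdgfrb, a marker of the interstitial cells that are the known source of Epo, stood at 3.35 to 8.06 FPKM. Of 7 other tested genes of erythropoietin control and signalling, limma called 0 between SHR and WKY (2 at an unadjusted p under 0.05). Between treated SHR and WKY the transcription factors Gata2 (1.10 ± 0.19, adjusted p = 0.0092) and Gata3 (1.34 ± 0.23, adjusted p = 0.0087) rose. In that comparison 3 of the 7 had a positive change and 4 a negative one, with a median of -0.29, against 0.11 for all genes. When 1 library was left out, 0 to 3 were called lower. Gata3 is also 1 of the 9 collecting duct markers, all of which were called higher in that comparison with a median change of 1.61, so its rise cannot be told apart from theirs.

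Most of a wider set of HIF targets outside glycolysis passed no test. Of 31 such tested genes other than the 10, limma called 0 between SHR and WKY (11 at an unadjusted p under 0.05), 0 between treated SHR and SHR (6 at that level), and 3 higher and 2 lower between treated SHR and WKY, where 16.8% of all genes were called higher and 6.09% lower. With the targets among the 10 included the calls were 5 higher and 2 lower. The 5 became 10 without treated library 1, 0 or 1 without treated library 2 or 3 or WKY library 1 or 3 and 3 without any one of the SHR libraries, and the 2 ranged from 0 to 3 when 1 library was left out. The list's medians, targets among the 10 included, were 0.10, -0.01 and 0.13 in SHR against WKY, treated SHR against SHR and treated SHR against WKY, close to 0.07, 0.04 and 0.11 for all genes. Hmox1, the haem-degrading enzyme, had 10.9, 6.22 and 7.80 FPKM in treated SHR, 10.4, 9.82 and 6.44 FPKM in SHR and 2.03, 3.43 and 4.61 FPKM in WKY. Both SHR groups lay above WKY, with a change of 1.11 ± 0.27 for treated SHR (adjusted p = 0.0238) and of 1.20 ± 0.27 for SHR (adjusted p = 0.054).

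Mxi1, an antagonist of MYC, was lower in both SHR groups, with 57.5, 59.8 and 60.3 FPKM in treated SHR, 65.0, 72.6 and 58.1 FPKM in SHR and 120, 80.8 and 110 FPKM in WKY. Its change was -0.78 ± 0.14 in treated SHR against WKY (adjusted p = 0.0112) and -0.65 ± 0.14 in SHR against WKY (adjusted p = 0.0513). Plod2, which hydroxylates collagen lysines, fell by 0.68 in treated SHR against WKY (adjusted p = 0.044). The carbonic anhydrase gene Ca12 and the histone demethylase gene Kdm4b rose by 0.54 and 0.37 (adjusted p = 0.046 and 0.0494).

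Glycolytic targets of HIF were mostly higher in treated SHR than in WKY. Of 20 tested genes, 18 had a positive change between SHR and WKY, as did 64.1% of all genes. Only 1, the phosphofructokinase gene Pfkl, was called (0.70 ± 0.09, limma adjusted p = 0.00547). In treated SHR against SHR 18 were positive, as were 57.4% of all genes. The median was 0.31, against 0.04 for all genes, and limma called 0 (7 at an unadjusted p under 0.05). In treated SHR against WKY 19 were positive, as were 64.6% of all genes. The median was 0.45, against 0.11 for all genes, and 10 were called, all higher, where 16.8% of all genes were called higher. That count was 12 without treated library 1, 5 without treated library 2, 4 without treated library 3 and 3 without WKY library 1 or 3, and in treated SHR against SHR it was 0 to 5 when 1 library was left out. The list mean of log2(FPKM + 1) was 6.22 to 6.50 in treated SHR, 6.10 to 6.13 in SHR and 5.84 to 6.07 in WKY, with no overlap between groups.

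Among the 10 called glycolytic genes, Ldha, which makes lactate, had 207, 234 and 270 FPKM in treated SHR, 169, 166 and 177 FPKM in SHR and 143, 153 and 152 FPKM in WKY (log2 change of treated SHR against WKY 0.66 ± 0.10, adjusted p = 0.00621). Pkm, the pyruvate kinase of most tissues other than liver and proximal tubule, had 252, 314 and 379 FPKM in treated SHR, 194, 203 and 229 FPKM in SHR and 145, 194 and 156 FPKM in WKY (0.92 ± 0.16, adjusted p = 0.00997). Each treated library was above each WKY library for both genes. Pdk1, a kinase that inhibits pyruvate dehydrogenase, changed by 0.66 ± 0.15 (limma, adjusted p = 0.0186). Pfkfb3, an activator of glycolytic flux, changed by 0.94 ± 0.20 (limma, adjusted p = 0.017). Gys1, Hk2, Pfkl, Pfkp, Pgk1 and Tpi1 were the others called. Collecting duct markers were called higher in treated SHR against WKY for 9 of 9 genes, and their part in the glycolytic changes was not tested. The 10 glycolytic calls became 5 in a fit of the treated SHR and WKY libraries alone. With the proximal marker mean as a covariate they became 0, and the calls over all genes dropped to 47, against 3010 without it. That mean was lower in every treated library than in all others, so this fit cannot separate the treatment from the marker levels.

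**Figure D5:**
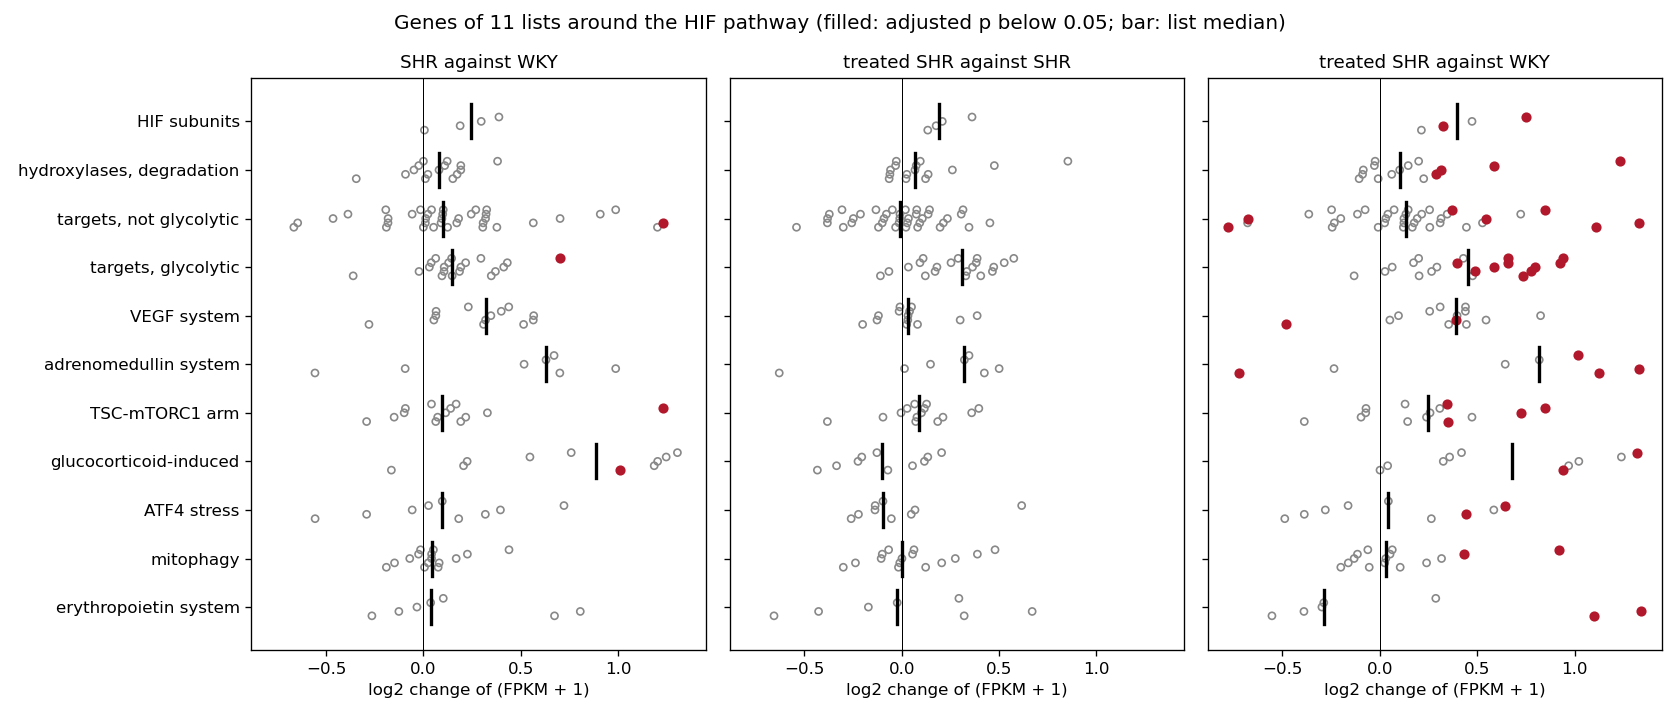
Log2 change of (FPKM + 1) of the tested genes of 11 lists around the HIF pathway (1 point per gene) in SHR against WKY, treated SHR against SHR and treated SHR against WKY; filled red points had an adjusted p below 0.05 (limma) and black bars are list medians. Glucocorticoid-induced genes lie furthest to the right between SHR and WKY, with a median of 0.88, and the glycolytic targets hold 10 of the filled points between treated SHR and WKY.

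The genes whose log2(FPKM + 1) most resembled each of the 9 over the 9 libraries differed from gene to gene. These are Pearson correlations over libraries that share their group and their cell makeup, given as a description. Adm was most like Tns2 (r = 0.994), Srgap1 (0.991) and Bcam (0.991). Epas1 was most like Adamtsl5 (0.988), Rnf145 (0.987) and Abr (0.984), and Vegfa was most like Gnaz (0.986), Pif1 (0.982) and Notch1 (0.974). Egln2 was nearest to Irf2bp1 (0.983), Hif1a to Cetn2 (0.978), Ddit4 to Gnmt (0.956) and Egln3 to Prdx4 (0.944). Egln1 was nearest to Cox14 (0.936), and Bnip3 to the ribosomal protein gene Rpl7a (0.936). Among the 10 genes, Adm followed Egln2 (0.92) and Vegfa (0.90), whereas Bnip3 had a negative correlation with Hif1a, Vegfa and Adm (-0.62 each).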

How the data were processed

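Per the labels' protocols, Trizol was used to extract kidney RNA, and a BGISEQ-500 instrument read 50 bases from 1 end of each fragment. HISAT2 2.0.4, Bowtie2 2.2.5 and the rat build Rnor_6.0 are named in the submitters' processing notes, where their roles are not stated. What program computed expression is not given in the sources used here. The authors' deposited unit is FPKM, per the file headers, with a column for each library. Because values are scaled to each library, a change in a few abundant transcripts shifts all others.

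From these values, log2(FPKM + 1) of the 13127 genes with at least 1 FPKM in at least 3 libraries was fitted with limma 3.58.1 in R 4.3.3. The model had 3 group means, 9 libraries, 6 residual degrees of freedom and an intensity trend, with two-sided tests and Benjamini-Hochberg adjustment over all genes, and called means an adjusted p under 0.05. The test was checked on simulated data. Epo, below the filter, was given an exact permutation test. Depth was compared through the FPKM worth of 1 read, from the modal ratio of low values between libraries, with only ratios close to equality kept. Promoters of the 10 genes were found by symbol, and their gene IDs were the same as those of the expression values. Promoters of all tested genes were matched by gene ID. The rest was computed in Python 3.11.15 (scipy 1.17.1, pandas 2.3.3, numpy 2.4.6) and drawn with matplotlib 3.10.9.

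The 10 genes, the 11 pathway lists and the 9 marker lists were chosen with earlier results of these data known. Genes named are the 10, every called gene of a pathway list (otherwise the 2 with the smallest p), and for each tested gene of the 10 those of its 3 most correlated genes given above; names outside this rule are stated as such or serve as markers. Alternatives were other pseudocounts, filters and scalings, fits of 2 groups, no trend, a replicate block, a proximal marker covariate and leaving out each library. Same-numbered libraries did not deviate together throughout (correlations from -0.328 to 0.456), so replicate numbers were not taken to pair them. Between WKY and treated SHR the same-numbered correlations were 0.456, 0.392 and 0, and the highest between differently numbered libraries of any groups was 0.327. The labels name no batch.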

Additional observations from a re-analysis of the deposited data

How the results depend on the processing

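Read totals are unknown, so no counting error can be given, and 3 libraries per group limit what any test can pass. Of 513 refitted changes of the 9 genes, 444 kept their direction and their side of the threshold, 38 lost a call, 6 gained one and 25 changed sign. Ddit4 stayed called between SHR and WKY in 17 of 19 alternatives. In treated SHR against WKY it stayed called in 14, Adm in 13, Hif1a in 8 and Egln2 in 5. Vegfa was called in 3 between SHR and WKY and in 1 between treated SHR and WKY, and Epas1 in 2 there. The cause of these changes was not tested.

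Of the 10 genes, 1 was called between SHR and WKY, 2 when only these groups were fitted and 0 to 2 when 1 library was left out. For treated SHR against SHR the count was 0 under every alternative. The count for treated SHR against WKY was 4, but 2 after median-of-ratios scaling, 2 after quantile normalization, 1 with only these groups, 0 with the proximal covariate and 0 to 6 when 1 library was left out. Over all genes, 388 were called between SHR and WKY, 258 with at least 1 FPKM required in all libraries and 167 to 626 when 1 library was left out. For treated SHR against SHR 0 were called, 1 with a replicate block and 0 to 830 when 1 library was left out, the highest without treated library 1. For treated SHR against WKY 3010 were called, 1026 with only these groups, 47 with the covariate and 593 to 4791 when 1 library was left out. The replicate block changed the calls of 1 gene of the 10, Egln2 between treated SHR and WKY (0.31, adjusted p = 0.0604). Of 1254 counts over pathway lists, 1078 stayed within 1.5 times.

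Sign changes were as follows. Between SHR and WKY, Egln1 was -0.0554 after median-of-ratios scaling and -0.0447 after quantile normalization, and Egln3 was -0.0572 after the first, -0.0958 after the second and -0.0101 with the covariate. Bnip3, in treated SHR against SHR, was 0.0169 after quantile normalization, and with the covariate Adm was -0.35 (0.35 without it), Bnip3 0.0513, Egln1 0.0471 and Hif1a -0.0793. For treated SHR against WKY, Egln1 was 0.0857 with the covariate. Leaving out 1 library gave, between SHR and WKY, -0.041 to 0.0704 for Egln1 and -0.0851 to 0.111 for Egln3. In treated SHR against SHR it gave -0.105 to 0.0507 for Bnip3, -0.0788 to 0.011 for Egln1 and -0.264 to 0.0224 for Vegfa, and between treated SHR and WKY -0.072 to 0.0387 for Egln1.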

Other observations

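Markers of 4 further cell types were measured. The mean log2(FPKM + 1) of 7 markers of intercalated cells, which secrete acid or base in the collecting duct, was 6.99 to 7.69 in treated SHR, 6.55 to 7.05 in SHR and 6.02 to 6.40 in WKY, so that both SHR groups lay above WKY. All 7 were called higher between treated SHR and WKY (limma, Benjamini-Hochberg adjusted p under 0.05), where the list's median change was 1.04 against 0.11 for all genes. The mean of 6 smooth muscle markers was 3.37 to 3.70 in treated SHR, 3.43 to 3.65 in SHR and 3.02 to 3.39 in WKY. SHR lay above WKY without overlap and treated SHR overlapped both, and limma called 0 of the 6 in any comparison (2 at an unadjusted p under 0.05 in SHR against WKY, 0 in treated SHR against SHR and 1 in treated SHR against WKY). The means of thick ascending limb markers (7.18 to 7.55 in treated SHR, 7.15 to 7.57 in SHR and 7.04 to 7.47 in WKY) and leukocyte markers (2.67 to 3.40 in treated SHR, 2.76 to 3.91 in SHR and 2.76 to 3.83 in WKY) overlapped between all groups, although of 8 tested thick ascending limb genes 3 were called higher and 1 lower between treated SHR and WKY.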
